A study of Sus scrofa with 8 samples.

Results

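The genes examined here encode 10 transcription factors of naive pluripotency, ESRRB, KLF2, KLF4, KLF5, KLF17, TBX3, NR5A2, PRDM14, NANOG and TFCP2L1. They were looked up by symbol in the Ensembl names of the pig genes, and 9 of the 10 symbols belong to a row of the count table, which holds 24358 gene identifiers, 14692 of them with a symbol. The study asked how overexpression of the transcription factor IRF-1 changes gene expression in porcine induced pluripotent stem cells (piPSCs). The RNA-seq data comprise 4 libraries, replicates 1 and 3 of IRF-1 overexpressing cells and replicates 6 and 8 of control cells.

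Both groups came from DOX-hLIF-2i piPSCs, which were derived from porcine embryonic fibroblasts with an OCT4-tdTomato reporter by the doxycycline-inducible lentiviral factors OCT4, SOX2, KLF4 and cMYC (FUW-OSKM with FUW-M2rtTA). According to the methods these cells were kept on feeder cells with doxycycline, human and porcine LIF, the GSK3 inhibitor CHIR99021 and the MEK inhibitor PD0325901, whereas the sample labels name the LCDMV culture system. The IRF-1 overexpressing cells carried PB-CAG-IRF1-Flag, a transposon in which the constitutive CAG promoter drives porcine IRF1 with a Flag tag, and the control cells carried PB-CAG-Flag without an insert. Both were selected with puromycin, and feeder cells were removed by letting them attach before RNA extraction. Which of the established lines was used, and whether the replicates came from separate cultures, is not given in the sources used here, so p-values measure the spread between these libraries, which may be technical. The labels describe the donor as an adult domestic pig and give the genotype of all 4 libraries as IRF-1 overexpression, and the split into overexpressing and control libraries follows the study's own assignment.

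IRF1 was therefore looked at before the other genes. Its counts were 8206 and 5485 with the transgene and 55 and 56 in the controls, so the 4 libraries fall into the assigned groups by this gene. The reads counted on genes totalled 24923319 and 20858333 in overexpressing replicates 1 and 3, and 15925429 and 17097669 in control replicates 6 and 8. Of these, 37 mitochondrial genes took 8.62% and 7.57% in the overexpressing libraries against 6.29% and 6.68% in the controls, so depth and the mitochondrial share were both higher in both overexpressing libraries. Without the mitochondrial genes and the 10 highest genes the same factors were called as described below, and the part of depth or RNA quality in the results was not tested. At these depths a single count is worth between 0.0402 and 0.0640 CPM (counts scaled to a library of fixed size), and 3 counts, taken as the floor of detection, are worth between 0.121 and 0.192 CPM. Floors and counting intervals cover counting error only, whereas the 95% intervals of log2 fold changes also hold the spread between libraries.

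Naive pluripotency is the state of the inner cell mass and of the early epiblast before implantation. In mouse embryonic stem cells it is held by a circuit of transcription factors that bind many shared enhancers and can partly replace one another, with LIF acting through STAT3 on KLF4 and TFCP2L1, and inhibition of GSK3 relieving the repression of ESRRB by TCF7L1. The circuit is not the same in every mammal, and KLF17 marks the naive state in human rather than in mouse cells.

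Counts were compared with edgeR's quasi-likelihood test over the 13250 genes that passed a filter on low counts, and a gene was called where its adjusted p was under 0.05 and its level changed by 1 or more on the log2 scale. Of the 9 factor genes with a row, 6 passed the filter. NR5A2 and TBX3 were called higher and ESRRB and KLF5 lower, which makes 4 genes called, where 19.3% of all genes tested were called, 8.61% higher and 10.6% lower. KLF4 and KLF2 were tested and not called. NANOG, KLF17 and PRDM14 did not pass the filter. KLF2 passed it through the control libraries alone and KLF5 through both controls and 1 overexpressing library, so the share called among the 6 is no measure of how often such factors change. Taken alone, a gene measured in 2 against 2 libraries can reach a two-sided p of 0.333 at the lowest by exact permutation, and the adjusted p-values draw on a spread estimated over many genes. Without overexpressing replicate 1 the fit called 733 genes higher and 787 lower, against 1141 and 1410 with all 4 libraries.

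**Figure D1:**
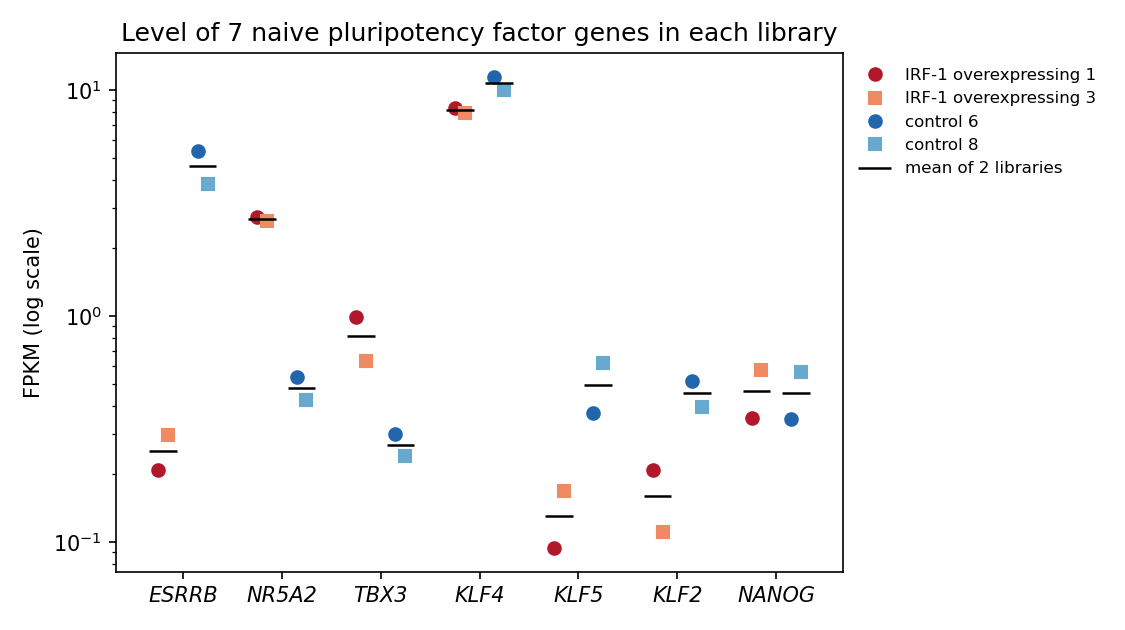
Expression of the 7 factor genes with more than 3 counts in every library, as FPKM on a log axis, with each point 1 library, red for IRF-1 overexpressing and blue for control, and each black line the mean of 2 libraries. ESRRB lies higher in both controls, NR5A2 and TBX3 lie higher in both overexpressing libraries, and the points of NANOG overlap between the groups.

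ESRRB is an orphan nuclear receptor that binds DNA as a monomer next to the core factors and is a main output of GSK3 inhibition in mouse cells. The gene (ENSSSCG00000002388) lies on the plus strand of chromosome 7 of the Sscrofa11.1 assembly, from 99513362 to 99699775, and its exons cover 5976 bases. It was counted 31 and 37 times in overexpressing replicates 1 and 3, against 502 and 402 times in control replicates 6 and 8. The corresponding levels were 1.25 and 1.78 CPM in the overexpressing cells and 32.1 and 23.0 CPM in the controls. Both overexpressing libraries were low and both controls high, with a wide gap between the groups. The mean was 1.51 ± 0.375 CPM in the overexpressing cells and 27.5 ± 6.46 CPM in the controls (SD, n = 2 libraries per group). ESRRB was 18.3-fold lower in the overexpressing cells, a log2 fold change of -4.19 with a standard error of 0.308 and a 95% interval from -4.91 to -3.47. The adjusted p was 0.000246 in edgeR's quasi-likelihood fit after Benjamini-Hochberg adjustment. Only 48 of the 13250 genes tested had a lower fitted log2 fold change than ESRRB. In bulk RNA, fewer cells that express a gene and less of its RNA in each cell cannot be told apart, here and for the other factors. Its nearest relatives were named after their values were seen. ESRRA had 827 and 637 counts with overexpression and 384 and 395 without (log2 fold change 0.44, not called), and ESRRG had 5 and 19 counts against 0 in both controls and was not tested.

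NR5A2, also called LRH-1, is a nuclear receptor that can activate the Oct4 promoter and can stand in for OCT4 in mouse reprogramming. Its gene (ENSSSCG00000024975) runs from 22727825 to 22866904 on the plus strand of chromosome 10, with 6303 exon bases. Counts were 431 and 344 in the overexpressing libraries against 53 and 47 in the controls. Scaled to library size these are 17.3 and 16.5 CPM against 3.39 and 2.69 CPM. The 2 overexpressing libraries lay close together and far above both controls. Mean levels were 16.9 ± 0.572 CPM and 3.04 ± 0.498 CPM (SD, n = 2 libraries per group), which is 5.58-fold higher in the overexpressing cells. The log2 fold change was 2.48 with a standard error of 0.265 and a 95% interval from 1.86 to 3.10, and the adjusted p was 0.000811 in edgeR's quasi-likelihood fit after Benjamini-Hochberg adjustment. A higher fitted log2 fold change was found for 489 of the genes tested. The paralogue NR5A1, named after its values were seen, had 1 count in each of the 4 libraries, so NR5A2 was the expressed gene of the pair.

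TBX3 is a T-box factor that acts mainly as a repressor and supports self-renewal of mouse embryonic stem cells. The gene (ENSSSCG00000009865) occupies 37583279 to 37598665 on the plus strand of chromosome 14 and has the longest exon sequence of the factors, 8112 bases. There were 200 and 107 counts of TBX3 in overexpressing replicates 1 and 3, and 38 and 34 counts in the controls. As CPM these are 8.05 and 5.14 against 2.43 and 1.94. The groups did not overlap, but the overexpressing libraries differed from each other more than the controls did. The level of 6.59 ± 2.05 CPM in the overexpressing cells was 3.02-fold above the 2.19 ± 0.345 CPM of the controls (SD, n = 2 libraries per group). Its log2 fold change was 1.59 with a standard error of 0.373, a 95% interval from 0.73 to 2.46 and an adjusted p of 0.0161 in edgeR's quasi-likelihood fit after Benjamini-Hochberg adjustment. Without overexpressing replicate 1 the log2 fold change was 1.24 and the call was lost, with an adjusted p of 0.147 in edgeR and a range from 0.0196 to 0.147 over the 4 fits that left out a library.

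The KLF genes encode zinc finger factors that bind GC-rich and CACCC elements, and KLF2, KLF4 and KLF5 act in part redundantly in mouse embryonic stem cells. KLF4 (ENSSSCG00000005437, minus strand of chromosome 1, 248604822 to 248609718, 3103 exon bases) was the most abundant of the factors in every library. Its counts were 640 and 512 in the overexpressing libraries against 555 and 541 in the controls. They correspond to 25.7 and 24.6 CPM against 35.5 and 30.9 CPM. Both overexpressing libraries lay below both controls, by a small margin. Means were 25.2 ± 0.809 CPM and 33.2 ± 3.24 CPM (SD, n = 2 libraries per group), a log2 fold change of -0.40 with a standard error of 0.169 and a 95% interval from -0.79 to -0.0051. KLF4 was not called, at an adjusted p of 0.119 in edgeR's quasi-likelihood fit after Benjamini-Hochberg adjustment. Both groups also carried KLF4 in the inducible lentivirus. Whether reads of the introduced KLF4 were counted on the KLF4 row was not tested. Any such reads cannot be told apart from endogenous ones in these counts. OCT4 was carried in the same lentivirus, and an unnamed row at the RefSeq position of its gene POU5F1 had 0, 0, 0 and 1 count.

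KLF5 (ENSSSCG00000035101, plus strand of chromosome 11, 45369575 to 45388299, 3434 exon bases) is known for roles in both the inner cell mass and the trophectoderm of the mouse blastocyst. It was counted 8 and 12 times in the overexpressing libraries and 20 and 37 times in the controls, which is 0.322 and 0.577 CPM against 1.28 and 2.11 CPM. The libraries of the groups did not overlap, yet the gene was low throughout and the counting intervals of the counts of 12 (6.20 to 21.0) and 20 (12.2 to 30.9) overlapped. Its mean was 0.449 ± 0.180 CPM in the overexpressing cells and 1.70 ± 0.590 CPM in the controls (SD, n = 2 libraries per group). KLF5 was 3.80-fold lower, with a log2 fold change of -1.93, a standard error of 0.548, a 95% interval from -3.20 to -0.65 and an adjusted p of 0.0336 in edgeR's quasi-likelihood fit after Benjamini-Hochberg adjustment. The call was lost with DESeq2, at an adjusted p of 0.0861, in a range from 0.0151 to 0.194 over the 10 alternatives that kept every library. It was also lost in edgeR without overexpressing replicate 1 (log2 fold change -1.55, adjusted p = 0.213), without overexpressing replicate 3 (-2.38, adjusted p = 0.0574) and without control replicate 8 (-1.51, adjusted p = 0.144).

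KLF2 (ENSSSCG00000038911, minus strand of chromosome 2, 61270714 to 61273138, 1741 exon bases) is a target of MEK-ERK signalling at the protein level in mouse cells, where the MEK inhibitor stabilises it. Its counts were 9 and 4 in the overexpressing libraries against 14 and 12 in the controls, or 0.362 and 0.192 CPM against 0.895 and 0.686 CPM. Both controls were higher, but all 4 counts were small. The log2 fold change of -1.46 had a standard error of 0.601 and a 95% interval from -2.86 to -0.07, and KLF2 was not called, with an adjusted p of 0.109 in the same edgeR fit. KLF17 (ENSSSCG00000024191, minus strand of chromosome 6, 167176834 to 167188418, 1955 exon bases) had 0 counts in every library. A count of 0 allows up to 3 counts, which for KLF17 is an FPKM (here the CPM divided by the exon length in kilobases) of up to 0.0617 and 0.0737 in the overexpressing libraries against 0.0981 and 0.0877 in the controls.

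Set against the rest of their family, the KLF factors of the naive circuit made up a small part of the KLF transcripts. The summed FPKM of KLF2, KLF4, KLF5 and KLF17 was 8.60 and 8.21 in the overexpressing libraries against 12.3 and 11.0 in the controls. The 13 other KLF genes with a row summed to 119 and 106 against 109 and 91.1. The 4 naive KLF genes thus took 6.74% and 7.16% of the family's FPKM in the overexpressing libraries against 10.1% and 10.8% in the controls. KLF4, which was not called and whose counts may hold introduced as well as endogenous reads, supplied most of the summed FPKM of the 4 genes. Its part was 96.5% and 96.6% with overexpression against 92.8% and 90.8% without, so the shares of the family mostly describe KLF4. TBX3 was set against the 12 genes with a row whose symbol starts with TBX, itself included. It took 3.06% and 2.07% of their summed FPKM in the overexpressing libraries against 1.26% and 0.812% in the controls. Of the 6453 exon bases of TBX6, 1095 are shared with PPP4C on the opposite strand and 146 with YPEL3 on the same strand. The sum and these shares are uncertain to that extent. The T-box genes EOMES, TBR1 and MGA and an unnamed row at the position of TBX15 were left out of this sum. MGA alone had an FPKM of 8.28 and 5.62 with overexpression against 5.22 and 9.49 without, so the share of TBX3 among all T-box genes is lower.

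**Figure D2:**
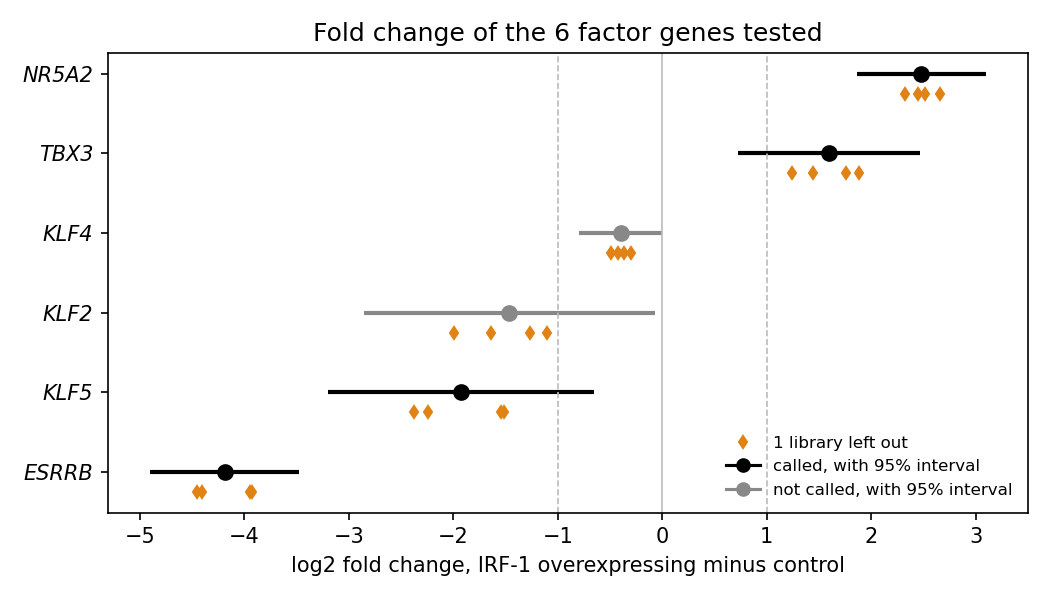
Fitted log2 fold change of the 6 factor genes tested, IRF-1 overexpressing minus control, with its 95% interval (black for called, grey for not called) and, as orange diamonds, the value with each library left out in turn. Dashed lines mark log2 fold changes of -1 and 1, NR5A2 (2.48) and ESRRB (-4.19) lie farthest from 0, and no diamond crosses 0.

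NANOG is the homeodomain factor of the core network, and in mouse embryonic stem cells it raises Esrrb. The counted gene (ENSSSCG00000040403) is on the plus strand of chromosome 5, from 62932575 to 62939035, and has 915 exon bases, the fewest of the factors. Its counts were 8 and 11 with overexpression and 5 and 9 without, which is 0.322 and 0.529 CPM against 0.320 and 0.514 CPM. The groups overlapped and their means, 0.425 ± 0.146 and 0.417 ± 0.138 CPM (SD, n = 2 libraries per group), were nearly equal. The counting intervals ran from 3.45 to 15.8 for the count of 8 and from 1.62 to 11.7 for the count of 5, so a moderate difference was not detectable at this depth. RefSeq places a second NANOG locus of 1159 bases on chromosome 1 of the same assembly, from 169064134 to 169065292, inside the span of THSD4 but on 0 exon bases of any row, and that locus was not analysed here. How reads that match both loci were counted is not given in the sources used here.

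PRDM14 is a zinc finger protein that represses DNA methyltransferases and FGF signalling in mouse embryonic stem cells. The gene (ENSSSCG00000006195, plus strand of chromosome 4, 65274003 to 65295178, 1677 exon bases) had 0 counts in all 4 libraries, which allows an FPKM of up to 0.0720 and 0.0860 in the overexpressing libraries against 0.114 and 0.102 in the controls. For TFCP2L1, a grainyhead-like factor induced by STAT3 and by GSK3 inhibition, no row carries the symbol. An unnamed row on the plus strand of chromosome 15, from 30072291 to 30131067, overlaps the RefSeq position of TFCP2L1 over 98.5% of the longer span. It had 0 counts in every library, with a floor of between 0.0684 and 0.109 FPKM, and it was not counted among the 9 genes because the match rests on position alone.

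The study also designed qRT-PCR primers for 8 of the 10 factors. Those shown here are given forward and then reverse, all written 5′ to 3′. For the 2 genes with 0 counts they mark the stretch of transcript that was assayed. The others are for the 2 genes with the clearest differences in opposite directions, and for KLF4. The KLF4 pair is named for the endogenous transcript, from which the counts cannot separate any introduced one. The qRT-PCR measurements were not analysed here.
KLF17 forward: agcaccacttatgtgagcca
KLF17 reverse: ctctcacctgtgtgtttgcg
PRDM14 forward: agtggatgcttctctgctacc
PRDM14 reverse: tgcctttctctcttggttca
ESRRB forward: acaaactcttcctggagatgc
ESRRB reverse: ggacttgaatgttgaggctg
NR5A2 forward: cacagttccgagtcgtttca
NR5A2 reverse: cactttgctatctttccaggc
endo-KLF4 forward: gagggaagaccagaatcccttgta
endo-KLF4 reverse: tagaaccaagactcaccaagcacc

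Levels of different factors were compared per exon length. In the overexpressing cells the order by mean FPKM was KLF4 (8.11 ± 0.261), NR5A2 (2.69 ± 0.0908), TBX3 (0.813 ± 0.253), NANOG (0.465 ± 0.160), ESRRB (0.253 ± 0.0628), KLF2 (0.159 ± 0.0690) and KLF5 (0.131 ± 0.0525), each over 2 libraries. In the controls it was KLF4 (10.7 ± 1.04), ESRRB (4.61 ± 1.08), KLF5 (0.494 ± 0.172), NR5A2 (0.482 ± 0.0790), NANOG (0.456 ± 0.150), KLF2 (0.454 ± 0.0852) and TBX3 (0.270 ± 0.0425). KLF4 led in both groups, and the rank behind it passed from ESRRB in the controls to NR5A2 in the overexpressing cells. KLF5, NR5A2, NANOG and KLF2 in the controls, and KLF2 and KLF5 in the overexpressing cells, had overlapping libraries and cannot be ordered. The order of NANOG, ESRRB and KLF2 in the overexpressing cells is uncertain too, as is that of TBX3 and NANOG. In overexpressing replicate 3 TBX3 and NANOG stood at 0.634 and 0.578 FPKM. In replicate 1 ESRRB and KLF2 stood at 0.209 and 0.208 FPKM, with 9 counts of KLF2, and NANOG rests on 8 and 11 counts. KLF4 alone reached the middle of all genes, with a mean FPKM above that of 54.8% of the genes tested in the overexpressing cells and of 61.7% in the controls. NR5A2 stood above 30.5% and 10.9% of the genes tested, and ESRRB above 6.56% and 40.0%. The other detected factors stood above at most 15.6% of genes in either group.

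The summed FPKM of the 9 factor genes was 12.9 and 12.3 in the overexpressing libraries against 18.9 and 16.0 in the controls. KLF4 supplied 64.3% of it in each overexpressing library, and 60.6% and 62.1% in the controls. Among the remaining factors ESRRB supplied 4.53% and 6.75% of the FPKM in the overexpressing libraries against 72.2% and 63.2% in the controls. NR5A2 supplied 59.7% and 59.5% against 7.22% and 7.01%, and TBX3 21.5% and 14.4% against 4.02% and 3.94%. Outside KLF4 the controls were thus made up mostly of ESRRB, and the overexpressing libraries mostly of NR5A2 and TBX3. The FPKM of NR5A2 was 13.2 and 8.81 times that of ESRRB in the overexpressing libraries, and the FPKM of ESRRB was 9.99 and 9.02 times that of NR5A2 in the controls. These ratios need no scaling between libraries.

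**Figure D3:**
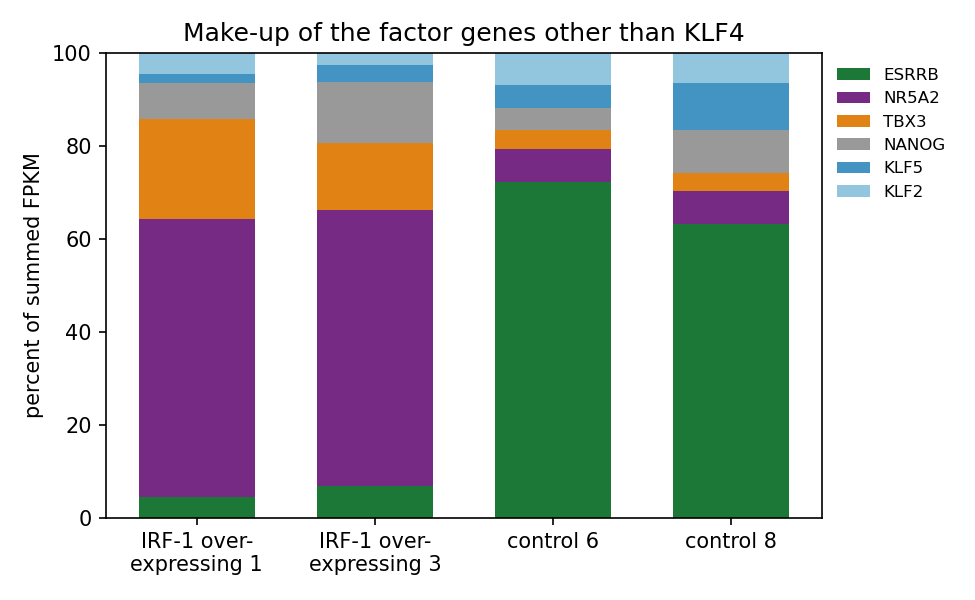
Percent of the summed FPKM of the factor genes other than KLF4 that each gene supplied, with 1 bar for each library. ESRRB (green) fills 72.2% and 63.2% of the control bars, and NR5A2 (purple) fills 59.7% and 59.5% of the overexpressing bars.

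The 9 rows lie on 9 different chromosomes, and none of them shares exon bases with another gene in the table. For each called factor the 2 named genes with the most similar profile were found by the root mean square distance between log2 CPM values centred over the 4 libraries. For ESRRB they were IKZF1 (distance 0.0326) and MFAP5 (0.125). IKZF1 had 20, 25, 326 and 268 counts in overexpressing replicates 1 and 3 and control replicates 6 and 8. In the same order MFAP5 had 3, 3, 77 and 57 counts. NR5A2 was closest to SLC37A1 (0.0648) and NGEF (0.0859), and TBX3 to TBC1D8B (0.0348) and SCAMP1 (0.0411). KLF5 was closest to TRO (0.0290) and C14orf39 (0.0795), a gene with 2, 4, 9 and 15 counts. The distances of MFAP5 and C14orf39 rest on overexpressing counts at or near the floor. With 4 libraries in 2 groups such a distance mostly describes the size of the group difference.

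Of 27 other genes listed for the naive and core network 14 had a row, 8 were tested, 1 was called higher and 2 lower, with a median log2 fold change of -0.19 beside -0.0016 over all genes tested. Of the 3 called, NR0B1 and SUSD2 passed the filter only through the group where they were high, so these counts do not show how often such genes change. The same limit holds for 3 called genes each among the paralogues and the neural markers, 2 among the fibroblast markers and 1 each among the WNT and GSK3, FGF-ERK, primed and trophoblast genes below. NR0B1 (DAX1), a nuclear receptor that binds NR5A2 and OCT4, was counted 157 and 155 times in the overexpressing and 1 and 6 times in the control libraries, a log2 fold change of 4.99. SUSD2, a surface marker of human naive cells, had 9 and 2 counts against 79 and 109 (-4.54). MYCN was called lower (-1.21) but not without overexpressing replicate 1 (-0.83) or control replicate 6 (-0.59), each of which left 1 gene called lower. The median was -0.10 without overexpressing replicate 3, -0.39 without control replicate 6 and -0.079 without control replicate 8. TRIM28 had the highest FPKM of the list and was not called (0.17). An unnamed row at the RefSeq position of POU5F1, which encodes OCT4, had 0, 0, 0 and 1 count. A row at the position of SALL4 had 2809 and 3359 counts against 4165 and 4127 and was not called (-0.87). Neither were the rows at TET2 (0.41) and TCF7L1 (-0.80). Of such rows for the lists below, that of TBX15 was called higher (2.36) and those of NKD2 (-2.01) and SOX7 lower. SOX7 had 1 and 2 counts against 9 and 12. It passed the filter through the controls alone and lay within the floor of 3 counts in both overexpressing libraries, so no fold is given. The alternatives are not reported for these rows. None of these rows is counted in the lists.

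Among 48 paralogues of the factors, 46 had a row, 29 were tested, 7 were called higher and 2 lower, with a median log2 fold change of 0.46. TBX2, PRDM8 and GRHL3 are the 3 that passed the filter through 1 group alone. TBX18, a T-box gene like TBX3, was counted 1730 and 1186 times in the overexpressing and 19 and 35 times in the control libraries, a log2 fold change of 5.28. TBX2, the closest T-box relative of TBX3, had 30 and 17 counts against 1 and 2, a ratio of 11.4 with an exact counting interval from 3.66 to 57.1 over the summed libraries, and was called higher, although not without overexpressing replicate 1 (adjusted p = 0.0661 in edgeR, in a range up to that value over its alternatives). PRDM8 rose from 0 counts in both controls to 22 and 42, which is at least 7.99-fold higher against a floor of 3 counts per library, and at least 4.87-fold without overexpressing replicate 3. KLF9 (2.29) was called higher and KLF8 (-1.66) and GRHL3 (-2.82) lower, while UBP1, the paralogue with the highest FPKM, was not called (-0.24). Without overexpressing replicate 1, 4 paralogues were called higher and 1, KLF8, lower, and the median was 0.25.

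The signals that feed the circuit were described in the same way. Of 17 genes listed for LIF and JAK-STAT signalling, among them the BMP pathway genes SMAD1, BMP4 and BMPR1A, 16 were tested. Of these, 5 were called, each of them higher (median 0.06). They include the receptor genes IL6R (2.42) and LIFR (1.38), the kinase gene JAK1 (1.95) and the BMP effector gene SMAD1 (1.29). LIFR was not called without overexpressing replicate 1 (1.05), which left 3 genes called higher, and 1 and 2 genes were called lower without overexpressing replicate 3 and control replicate 8. The median was 0.12 and 0.13 without those 2 libraries and 0.50 without control replicate 6. The 18 genes listed for WNT and GSK3 signalling include TCF3 (0.27, not called), which encodes an E protein and no WNT effector. Of the 18, 16 were tested. Of these, 2 were called higher and 6 lower (median -0.0011), with LGR5 (4.27) and LEF1 (1.38) higher and the feedback gene RNF43 (-3.07) lower. Without overexpressing replicate 1, 2 of them were called lower, and the median stayed between -0.037 and 0.016 with any 1 library left out. Of 19 FGF-ERK targets and feedback genes 17 were tested, 4 were called higher and 1 lower (median -0.10), with SPRY2 (2.94), SPRY1 (2.89) and SPRED2 (1.63) higher and IER3 (-3.16) lower. EGR1 was counted 1375 and 2627 times in the overexpressing libraries, but 8151 times in control replicate 6 and 69 times in control replicate 8, so the controls stood apart from each other in this immediate early gene. In the same 2 controls FOS had 5777 and 33 counts, DUSP6 262 and 14, DUSP5 152 and 33 and the called gene IER3 162 and 74, and the first 3, named after their values were seen, were not called. Without control replicate 6, 8 genes of this list were called higher, and without control replicate 8, 5 were called lower. The median was 1.01 and -0.29 without these controls and -0.15 without overexpressing replicate 3.

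Of 25 genes of primed and formative pluripotency 19 were tested, 4 were called higher and 5 lower (median -0.50). SOX11 (3.67) and SALL3 (2.39) were higher, POU3F1 was called higher at 245 and 262 counts against 2 and 1 (ratio 123, exact counting interval 41.7 to 597, and 194 without control replicate 6), and OTX2 (-1.79) and LIN28A (-1.34) were lower. Without control replicate 6, 3 were called lower, and the median was -0.32 without overexpressing replicate 1. Of 11 markers of induced pluripotent cells 5 had a row and 4 were tested, and the 3 called were lower, namely ESRRB, CDH1 (-2.25) and LIN28A, with a median of -1.80. Their summed FPKM was 271 and 317 in the overexpressing libraries against 868 and 664 in the controls, most of it LIN28A. This list holds the factors ESRRB and NANOG and shares LIN28A with the primed genes. Of its tested genes only CDH1 and EPCAM, which was not called, are in neither group.

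Markers of other cell types moved between the groups too, and their part in the values of the factors was not tested. Of 16 trophoblast markers 8 were tested, 1 was called higher, TFAP2A (3.72), and 5 lower, among them KRT18 (-5.77) and KRT8 (-3.95), with a median of -2.75. Their summed FPKM was 83.7 and 304 in the overexpressing libraries against 4225 and 2579 in the controls, most of it KRT8, and CDX2, GCM1 and HAND1 had 0 counts. Of 20 neural markers 16 were tested, 10 were called higher and 1 lower (median 1.83), with TUBB3 (4.80) higher, TLX3 higher at 1077 and 750 counts against 2 and 0 (ratio 663, exact counting interval 183 to 5477, and 313 without control replicate 8 or at least 233 without control replicate 6) and NES (-2.06) lower. Their summed FPKM was 393 and 204 against 73.3 and 69.8, with STMN2 (1.69, and 1.06 without overexpressing replicate 1) the most abundant by mean over the 4 libraries, although TUBB3 exceeded it in overexpressing replicate 1 (144 against 143), and all 18 with a row were counted in at least 1 library. Of 19 fibroblast markers 10 were tested, 2 were called higher and 5 lower (median -1.47), such as PRRX1 (1.62) and PDGFRB (-5.49), with summed FPKM of 225 and 182 against 271 and 250, most of it VIM. Without overexpressing replicate 1 or control replicate 8, 1 fibroblast marker was called higher. Of 12 primitive endoderm markers 4 were tested and 1 was called, APOA1 (-2.55), with a median of -1.03 and summed FPKM of 48.8 and 56.6 against 72.0 and 75.6, most of it LAMA1, while AFP, FOXA2 and TTR had 0 counts. Without control replicate 8, 2 of these were called lower, as they were with upper-quartile factors, library totals alone, no filter, a filter of 1 CPM in 2 libraries or no fold-change minimum. As background, ESRRB is also expressed in mouse trophoblast stem cells, KLF5 in trophectoderm and TBX3 and NR5A2 in several differentiated tissues.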

How the data were processed

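Total RNA was sequenced as poly(A) libraries. The methods give trimming with trim_galore and mapping to the Sscrofa11.1 assembly. The deposited values are unnormalized counts, as whole numbers for each Ensembl gene from featureCounts, with exon lengths in bases. The submitters' processing notes name HISAT2 2.0.4 and featureCounts 1.6.4. The annotation release, strand setting and treatment of multi-mapped reads are not given in the sources used here. Among the named genes TBX18, JAK1, MYCN, EGR1, PRDM8, TRIM28, UBP1, DUSP6, ESRRA, SLC37A1, TRO and the row matched to NKD2 share exon bases with genes on the opposite strand. TBX6 does so too. ESRRA and TBX6 each also share them with 1 gene on the same strand. The counts of all these genes are uncertain. The 4 ChIP-seq samples were not used.

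Counts were scaled with TMM (edgeR 4.0.16, R 4.3.3), filtered with filterByExpr by group (about 0.527 CPM in at least 2 libraries) and tested with the quasi-likelihood fit (common dispersion 0.0313), with Benjamini-Hochberg adjustment over 13250 genes. Standard errors are the log2 fold change divided by the square root of F, and 95% intervals use the t distribution of the fit and are not adjusted. FPKM is TMM-scaled CPM per kilobase of the deposited exon length. A fold against a group at 0 is a bound against 3 counts per library, and against 1 to 3 counts the ratio has an exact binomial interval. RefSeq names and positions are of assembly Sscrofa11.1.

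Alternatives were other scalings, filters and tests (DESeq2 1.42.0, limma-voom with limma 3.58.1, glmTreat), calls by adjusted p alone, fits without each library, and counts without 37 mitochondrial genes and the 10 highest genes. Named genes are the factors, IRF1 and the 2 closest profiles of each called factor. From each list they are up to 4 called genes per direction with the largest fold changes and the most abundant gene. Rows matched by position, T-box genes in or left out of a sum and genes that describe the make-up of a list are named as well. The factor genes and lists were chosen with earlier results of these data known. The statistics were tested on simulated counts.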

Additional observations from a re-analysis of the deposited data

How the results depend on the processing

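ESRRB and NR5A2 kept their direction and their call under the 14 alternatives, with log2 fold changes between -4.46 and -3.93 and between 2.32 and 2.65 over the 4 fits that left out a library. TBX3 ranged from 1.24 to 1.88 and KLF5 from -2.38 to -1.51 over those fits, which assume that the lone library of a group varies like the others. Genes called higher numbered 1842 without a fold-change minimum and 611 with glmTreat, and genes called lower 603 with glmTreat, since these change the threshold itself. With a library left out, between 733 and 1124 genes were called higher and between 787 and 1500 lower. Factor genes called lower numbered 1 with DESeq2, where KLF5 was lost, and 1 with glmTreat, where KLF5 was lost, and those called higher numbered 1 with glmTreat, where TBX3 was lost (adjusted p = 0.180 in edgeR). With a library left out, between 1 and 2 factor genes were called in each direction. In the other lists glmTreat called 1 naive and core gene lower (2 as reported), 4 paralogues higher (7) and 1 lower (2), 2 LIF and JAK-STAT genes higher (5), 1 WNT and GSK3 gene higher (2) and 2 lower (6), 0 primed genes lower (5) and 1 fibroblast marker higher (2). Without a filter 2 naive and core genes were called higher (1 as reported), and 1 LIF and JAK-STAT gene (0), 3 FGF-ERK genes (1) and 2 primitive endoderm markers (1) lower. A filter of 1 CPM in 2 libraries left 1 naive and core gene lower (2). Without a fold-change minimum 4 paralogues (2) and 2 neural markers (1) were called lower. Of 154 list medians under alternatives, 32 moved by 0.1 or more. With every library kept, those that moved by over 1.5 times as well were the medians of the FGF-ERK genes (0.22) and primed genes (-0.31) with limma-voom and of the naive and core genes (-0.40) and primitive endoderm markers (-1.59) without a filter. KLF2 and KLF4 were not called under any alternative that tested them. EGR1, at -1.53, reversed to 0.96 with limma-voom, and with a library left out it ranged from -2.52 to 4.52, the highest without control replicate 6, which held 8151 of its counts. The cause was not tested. Over the values of single genes under alternatives, 863 kept direction and call, 39 lost the call, 3 gained it and 2 reversed. Without length scaling the ranks of KLF4 in both groups, of NR5A2 and TBX3 in the overexpressing cells and of ESRRB and KLF2 in the controls did not move, and the other 8 ranks did. No paired analysis was possible because the replicate numbers 1 and 3 are not shared with the controls, which are 6 and 8. Depth limits KLF2, KLF5, NANOG, KLF17 and PRDM14, whose counts were between 0 and 37.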
